A study of Mus musculus with 23 samples.

Results

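The 10 genes described here in the RNA of mouse microglia are the class I heavy chains H2-K1 and H2-D1, their light chain B2m, the peptide transporter subunits Tap1 and Tap2, the loading factor Tapbp, the transcriptional regulator Nlrc5, and the immunoproteasome subunits Psmb8, Psmb9 and Psmb10. They were taken by symbol, 10 of the 53090 genes in the deposited tables, with no threshold on measured values. All 10 passed the filter on low counts that kept 18720 genes, and the lowest count of any of them in any library was 1023, for Nlrc5.

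Poly(A) RNA was sequenced from brain microglia of female C57BL/6 mice in 23 libraries. The groups were young (Y, n = 7), young with repopulated microglia (Y-re, n = 3), old (O, n = 5) and old with repopulated microglia (O-re, n = 8). Repopulated microglia are the cells that refill the brain after the resident ones have been removed, here with PLX5622, an inhibitor of the receptor CSF1R, mixed into AIN-76A chow at 1200 ppm. The protocols give control animals the same chow without the drug, but the labels do not say which young or old animals ate it. The sources used here give no ages, no length of treatment and no time allowed for refilling. One protocol selects CD11b-positive cells on magnets and cultures them, and another takes RNA from microglia sorted by flow cytometry. Nothing in the labels says that each library is a separate animal, so the p-values measure the spread between these libraries.

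Class I molecules display peptides from inside the cell to CD8 T cells and natural killer cells. Proteins are cut by the proteasome, whose catalytic subunits can be replaced by the interferon-induced Psmb8, Psmb9 and Psmb10; the peptides are pumped into the endoplasmic reticulum by the Tap1 and Tap2 transporter and handed to the heavy chain and B2m with the help of Tapbp (tapasin). Nlrc5 is known as the main transactivator of class I genes, acting through a promoter module of X and Y boxes, and interferons raise the whole set. Microglia are known to carry little class I protein at their surface at rest and more of it with age, interferon or injury. The values given here are of RNA and not of surface protein.

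Of the 10 genes, 7 lie in the major histocompatibility complex on chromosome 17 of the mouse build GRCm38, in the order Tapbp (33919478 to 33929290, RefSeq), H2-K1 (33996012 to 34000619, minus strand), Psmb9 (34182030 to 34187330, minus strand), Tap1 (34187556 to 34197225), Psmb8 (34198195 to 34201454), Tap2 (34204479 to 34216321) and H2-D1 (35263094 to 35267497). B2m lies on chromosome 2 (122147687 to 122153082), and Nlrc5 (94434335 to 94527272) and Psmb10 (105935728 to 105938392, minus strand) lie on chromosome 8. All are protein coding. Tap1 and Psmb9 point away from each other with 225 bases between their RefSeq starts. In GENCODE M21 their models overlap by 212 bases on opposite strands, so reads from that stretch could be told apart only if strand was used in counting, and the sources used here do not say so.

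RefSeq promoters (GRCm38.p6) were matched for 8 of the 10 genes, all but Tap2 and Nlrc5. The 3 genes that form the class I molecule itself share an arrangement in the 250 bases before a RefSeq transcript start: TGACG, the core of the X2 box, then 20 bases, then ATTGG, a Y box (an inverted CCAAT). The capitals below mark these letters, read on the strand of the gene. H2-K1 (chr17:34000359-34000388, minus strand), H2-D1 (chr17:35262993-35263022, plus strand) and B2m (chr2:122147609-122147638, plus strand) are shown because this is the kind of element through which Nlrc5 is known to act.
H2-K1: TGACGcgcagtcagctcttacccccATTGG
H2-D1: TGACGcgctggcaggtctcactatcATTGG
B2m: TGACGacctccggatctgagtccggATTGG
The first bases lie 41, 101 and 78 bases before the transcript starts at 34000347 (H2-K1), 35263094 (H2-D1) and 122147687 (B2m). The promoter table also lists a start of H2-K1 at 34000333, and the RefSeq gene span of H2-K1 given above reaches farther upstream, to 34000619, so that both H2-K1 elements shown here lie inside that span. H2-K1 and H2-D1 share 23 of the 30 bases, H2-K1 and B2m 13, and H2-D1 and B2m 12, of which the marked letters make up 10. This spacing, searched on both strands, occurred in 0.0913% of 32851 promoter windows of the same length, and none of the other 5 members with a promoter had it. It was written down after the sequences had been seen, so its rarity is a description. The GENCODE M21 model of H2-D1 starts farther upstream, at 35262730, so that its gene span covers the H2-D1 element. Its exons were not looked at.

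A second stretch holds the matches to the NF-kB consensus and to interferon elements, in capitals below. In H2-K1 (chr17:34000429-34000458) and H2-D1 (chr17:35262923-35262952) the NF-kB match is followed by the reverse complement of GAANTGAAA. In B2m (chr2:122147548-122147570) GAAANNGAAA comes first and the NF-kB match second.
H2-K1: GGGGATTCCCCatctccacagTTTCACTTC
H2-D1: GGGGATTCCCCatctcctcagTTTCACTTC
B2m: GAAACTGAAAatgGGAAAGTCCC
The H2-K1 and H2-D1 stretches are identical at 29 of 30 bases. On both strands, the NF-kB consensus was found in 3.9% of all promoter windows, GAANTGAAA in 1.5% and GAAANNGAAA in 2.98%. TTCNNNGAA, the GAS motif of STAT factors, was found in 7.02% of windows and, among the members, in Psmb8. A match describes letters in a window and not a bound site.

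Levels spanned a wide range. In TPM, a transcript scale corrected for length, the median over the 23 libraries was 6191 for B2m, 1951 for H2-D1, 1666 for H2-K1, 201 for Tapbp, 177 for Psmb8, 143 for Psmb10, 112 for Tap1, 79.8 for Psmb9, 70.2 for Tap2 and 25.9 for Nlrc5. Most neighbours in this order had overlapping ranges: H2-D1 ran from 1062 to 2970 TPM and H2-K1 from 696 to 2262. B2m, at 3328 to 8170 TPM, lay above all other members. Nlrc5 varied most, with a 5.83-fold span from the lowest to the highest library in TMM-scaled CPM, which are counts corrected for library size, and Tap2 least, with a 1.57-fold span.

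Library totals ran from 43657297 to 58189402 expected counts. The sample titles number the libraries, and the young, old and old repopulated groups have libraries both in the run 1 to 11 and in the run 12 to 24, while all 3 young repopulated libraries are numbered 22 to 24. Wdfy1, which is no member, was at 90.4 to 130 CPM in the libraries numbered 1 to 11 and 22 to 24 and at 30.4 to 56.2 CPM in those numbered 12 to 21. What the runs stand for is not given in the labels, and results are given within them below. Young replicate 3 had counts in only 16399 genes, against 17620 to 22208 in the others. The summed CPM of 10 microglia markers ran from 25691 to 31201 in young, 22757 to 26371 in young repopulated, 10310 to 25622 in old and 9793 to 29060 in old repopulated libraries, with none of the 10 at 0 in any library. The summed CPM of 8 monocyte markers ran from 29.5 to 290 (median 41.3), 110 to 364 (median 227), 143 to 2696 (median 892) and 123 to 3267 (median 640.0), and that of 8 border-associated macrophage markers from 72.5 to 249, 317 to 444, 192 to 905 and 73.6 to 1273, in the same order. The 10 T and NK cell markers summed to at most 5.28 CPM in any library. These markers move with the groups that are compared below, and their part in the results was not tested. In bulk RNA, fewer cells of a type and less RNA per cell cannot be told apart.

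In 3 of the 5 comparisons between groups all members differed in 1 direction, and few passed the test. In old against young libraries all 10 were higher (48.5% of all tested genes were), with a median log2 fold change of 0.29 against -0.012 over all genes, and 1 passed edgeR's quasi-likelihood test at an adjusted p under 0.05: Nlrc5. The background for that count is 2.83% of genes called in either direction and 2.6% called higher; 4 members had an unadjusted p under 0.05, against 15.3% of genes. In old repopulated against old libraries all 10 were lower (49.4% of all genes were), with a median of -0.19, and none was called, against 0.278% of genes. Of the 10, 3 had an unadjusted p under 0.05, against 10.4% of genes. DESeq2 called 1, against 1.66% of genes, and voom with sample weights called 1, against 2.21%, Tap1 in both. In young repopulated against young libraries all 10 were higher (46.2% of all genes were), with a median of 0.17, and none was called, against 1.34% of genes. Of the 10, 1 had an unadjusted p under 0.05, against 15.1% of genes. DESeq2 called none, against 4.35% of genes, and voom called 3, against 13.8%. These comparisons share the young or the old libraries, so their directions are not independent of each other. Nor are the members: old replicate 3 was the highest library for 7 of them and old repopulated replicate 2 the lowest for 6. Within libraries numbered 1 to 11, B2m, Tap1, Tap2, Tapbp, Psmb8 and Psmb9 were lower in old than in young. In that run H2-D1, B2m, Tap2, Tapbp, Psmb8 and Psmb10 were higher in old repopulated than in old. In old repopulated against young libraries 5 members were higher and 5 lower (48.4% and 51.6% of all genes), with 1 at an unadjusted p under 0.05, against 30.5% of genes, and that one, Psmb10, was called. In old repopulated against young repopulated libraries 8 members were lower and 2 higher (45.4% and 54.6% of all genes), and the interaction was negative for all 10 (46.5% of all genes). In CPM, groups that did not overlap were found only for Nlrc5, in old above young and in young repopulated above young. For the other directions and comparisons, none of the members was so in CPM, against 0.78% of genes with old below young, 6.11% with young repopulated below young, 0.304% and 0.433% with old repopulated above and below old, 0.983% and 1.26% with old repopulated above and below young, and 1.21% and 1.05% with old repopulated above and below young repopulated.

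**Figure D1:**
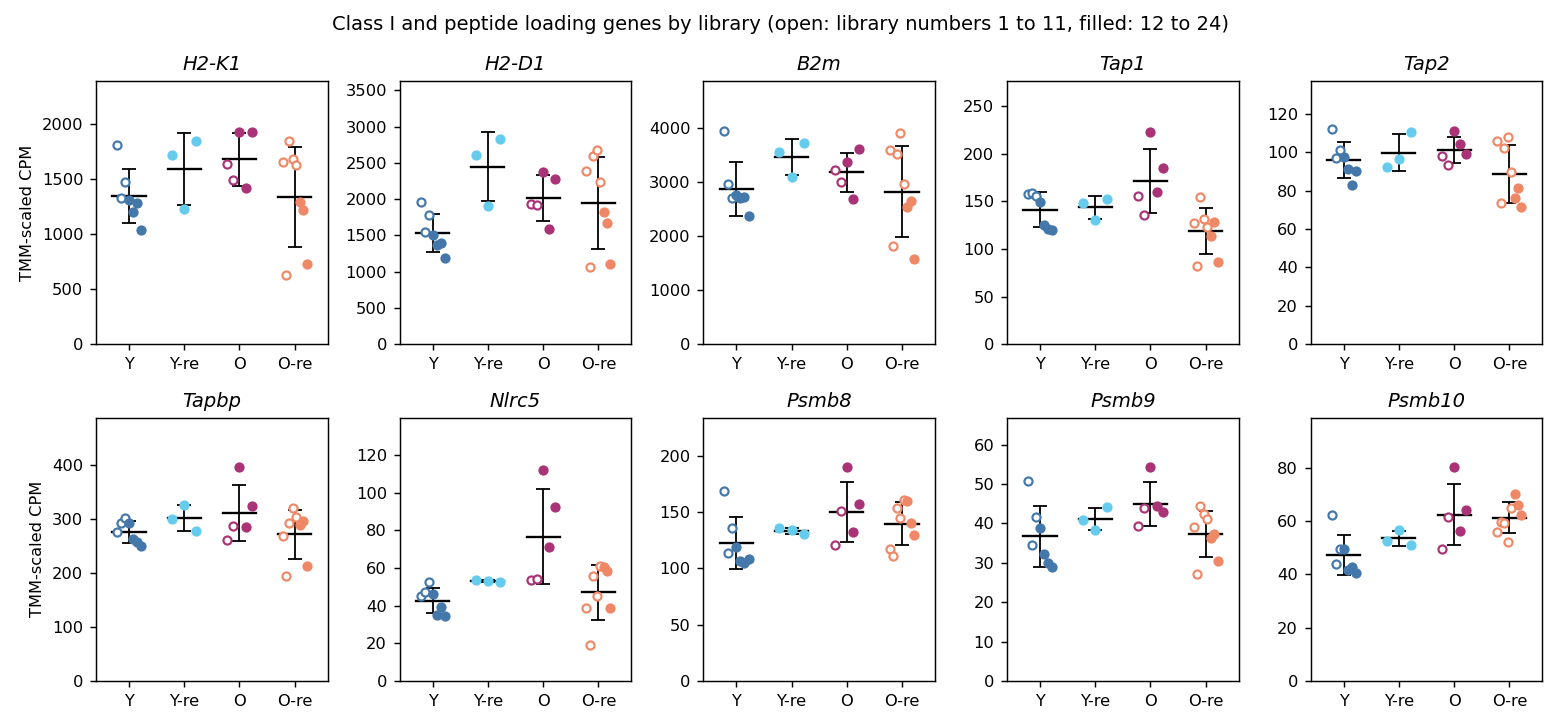
TMM-scaled CPM of the 10 members (y axes, from 0) in each library of the 4 groups (x axes). Points are libraries, open for numbers 1 to 11 and filled for 12 to 24, and bars are the group mean ± SD; the old Nlrc5 libraries reach 112 CPM and lie above all young ones on this scale, while the other members' groups overlap.

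Nlrc5, the class I transactivator, was the only member called in old against young libraries, by edgeR over all 18720 genes. Its 7 young libraries ran from 34.3 to 52.4 CPM with a median of 45.0. The 5 old libraries stood at 53.9, 54.3, 112, 71.0 and 92.7 CPM. In CPM all old libraries lay above all young ones, which held for 1.43% of genes in this direction, and the 3 highest were those numbered 12 to 24. In TPM the groups overlapped: young replicate 3 was at 37.4, above old replicates 1 and 2 at 27.8 and 29.5. The log2 fold change was 0.85 ± 0.22 (SE, n = 5 and 7), with an adjusted p of 0.0365 from edgeR. Leaving out any one of 8 libraries ended the call: young replicates 1, 2, 4, 5, 6 and 7 gave adjusted p from 0.0512 to 0.0827, old replicate 5 gave 0.119 and old replicate 3, the highest library, gave 0.217 at a log2 fold change of 0.67. Within the libraries numbered 12 to 24 the difference was 1.26 ± 0.17 (adjusted p = 5.8e-04), and within those numbered 1 to 11 it was 0.16 ± 0.35 (adjusted p = 1). The difference between the runs, 1.10 ± 0.42, had an adjusted p of 0.531 (unadjusted 0.018). That quasi-likelihood test called 0 of 19676 genes. The old libraries with the most Nlrc5, replicates 3 and 5, also had the highest summed monocyte markers of the old group, 2696 and 1387 CPM, and the lowest summed microglia markers, 10310 and 17053 CPM; the part of this in the result was not tested.

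After repopulation in old mice Nlrc5 ran from 19.2 to 60.9 CPM with a median of 50.3, and 3 of the 8 libraries lay below 40 CPM. The log2 fold change against old was -0.71 ± 0.21 and did not pass (adjusted p = 0.159). The 3 young repopulated libraries stood at 53.7, 53.1 and 52.6 CPM. In CPM each lay above every young library, which held for 5.97% of genes in this direction. In TPM they stood at 27.9, 29.0 and 19.4, within the young range of 16.3 to 37.4. The fold change of 0.32 ± 0.26 did not pass (adjusted p = 0.626). The interaction (the change from old to old repopulated minus the change from young to young repopulated) was -1.02 ± 0.33 for Nlrc5 and did not pass (adjusted p = 0.436).

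The heavy chain H2-D1 differed from its sister H2-K1 in the repopulated groups. H2-D1 ran from 1182 to 1965 CPM in young libraries (median 1504), stood at 2603, 1909 and 2833 in young repopulated ones and at 1934, 1917, 2379, 1590 (replicate 4) and 2271 in old ones, and ran from 1061 to 2673 in old repopulated ones (median 2034). Of the 3 young repopulated libraries, 2 lay above every young one. The fold change of young repopulated against young was 0.67 ± 0.24 on the log2 scale and did not pass with all groups in the fit (adjusted p = 0.162). It passed in a fit of these 2 groups alone, with voom, and within the libraries numbered 12 to 24 (0.88 ± 0.19, adjusted p = 0.0136, with 9.3% of genes called), where the young repopulated libraries are the ones with high Wdfy1. In old against young libraries it was 0.40 ± 0.20 (adjusted p = 0.369) and in old repopulated against old -0.053 ± 0.20 (adjusted p = 0.974).

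H2-K1, the other classical heavy chain of this strain, ran from 1033 to 1809.9 CPM in young libraries (median 1308). The young repopulated libraries stood at 1714, 1222 and 1838, and the old ones at 1630.3, 1488, 1923, 1415 and 1920.5. The old repopulated libraries ran from 629 to 1839 with a median of 1458. Every group overlapped every other. The log2 fold changes were 0.32 ± 0.22 in old against young, -0.33 ± 0.21 in old repopulated against old and 0.24 ± 0.25 in young repopulated against young, none past the test (adjusted p = 0.533, 0.651 and 0.728).

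Within each library, the ratio of H2-D1 to H2-K1 set the repopulated groups apart from the others. The ratio of TPM was 1.08 ± 0.062 (SD, n = 7) in young, 1.13 ± 0.048 (n = 5) in old, 1.39 ± 0.054 (n = 3) in young repopulated and 1.38 ± 0.10 (n = 8) in old repopulated libraries. The 7 young libraries ran from 1.0 to 1.16 with a median of 1.09, and the old ones stood at 1.06, 1.17, 1.18, 1.10 and 1.15. The young repopulated ones stood at 1.33, 1.42 and 1.42, and the old repopulated ones ran from 1.25 to 1.53 with a median of 1.35. No library of the 11 repopulated ones overlapped any of the 12 others, and this was so in both runs of library numbers. The ratio of expected counts, without the length correction, separated them likewise, at 1.09 to 1.29 against 1.37 to 1.69.

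Of the 45 ratios between pairs of members, this was the only one that separated repopulated from other libraries. It was chosen after its values had been seen and is given without a test. How many ratios between other genes separate these libraries was not counted, so the separation has no background beyond the 45 pairs. The summed monocyte markers ran from 143 to 2696 CPM in old and from 123 to 3267 CPM in old repopulated libraries, and their part in the ratio was not tested. The counting method divides reads among similar genes, and the heavy chains resemble each other: of the stretches of 50 bases, the read length, in GENCODE M21 transcripts, 90.4% of those of H2-K1 and 87.2% of those of H2-D1 occur in no other gene, with 4.08% of the H2-K1 stretches and 5.44% of the H2-D1 stretches shared between the 2. How the shared reads were divided was not tested.

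**Figure D2:**
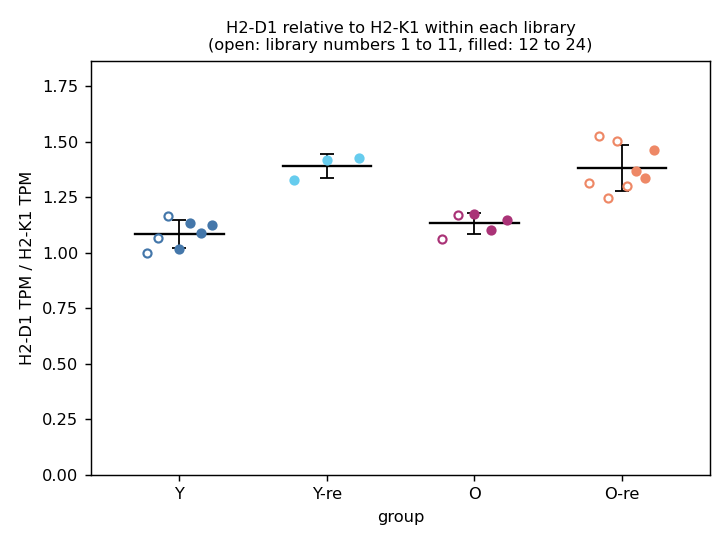
Ratio of H2-D1 to H2-K1 in TPM (y axis, from 0) in each library by group (x axis). Points are libraries, open for numbers 1 to 11 and filled for 12 to 24, with the group mean ± SD; the 11 repopulated libraries lie at 1.25 or above and the 12 others at 1.18 or below.

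B2m, the light chain shared by all class I molecules, ran from 2365 to 3935 CPM in young libraries (median 2724). It stood at 3561, 3089 and 3725 in young repopulated and at 3226, 2993, 3368, 2676 and 3617 in old libraries, and ran from 1566 to 3912 in old repopulated ones (median 2805). The groups overlapped throughout. Its log2 fold changes were the smallest of the 3 chains in old against young (0.14 ± 0.18, adjusted p = 0.787) and lay at -0.17 ± 0.18 in old repopulated against old and 0.27 ± 0.21 in young repopulated against young (adjusted p = 0.834 and 0.621).

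The summed counts of H2-K1, H2-D1 and the H2-Q and H2-T genes, in which H2-D1 made up 45.3% and H2-K1 34.4%, avoid the division of reads among these genes. Their log2 fold changes were 0.36 in old against young, -0.26 in old repopulated against old and 0.40 in young repopulated against young, none past the test (adjusted p = 0.474, 0.766 and 0.494).

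Tap1, the transporter subunit whose promoter region faces that of Psmb9, showed the lowest p of the members in old repopulated against old libraries. The old libraries stood at 155, 136, 223, 160 (replicate 4) and 184 CPM, and the 8 old repopulated ones ran from 81.8 to 155 with a median of 125. Of the latter, 7 lay below every old library in CPM, and in TPM all 8 did, at 64.4 to 108 against 113 to 193. The share of all genes whose groups separate in TPM was not counted, so this separation has no background. The log2 fold change was -0.54 ± 0.14 and did not pass in edgeR (adjusted p = 0.0887). It passed in DESeq2, in voom and without old repopulated replicate 3 (-0.60, adjusted p = 0.0471). Within the libraries numbered 12 to 24 it was -0.79 ± 0.15 (adjusted p = 0.0084) and within those numbered 1 to 11 it was -0.23 ± 0.19 (adjusted p = 1). Against young libraries, which ran from 120 to 158 CPM, old libraries differed by 0.28 ± 0.14 (adjusted p = 0.349) and young repopulated libraries, at 148, 130 and 153 CPM, by 0.025 ± 0.17 (adjusted p = 0.969).

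Tap2, the partner subunit, had small differences: 0.075 ± 0.11 in old against young, -0.19 ± 0.10 in old repopulated against old and 0.054 ± 0.12 in young repopulated against young (adjusted p = 0.810, 0.548 and 0.895). Its group means were 96.1 CPM in young, 99.7 in young repopulated, 101 in old and 88.5 in old repopulated libraries. Tapbp, which bridges the transporter to the heavy chain, gave 0.17 ± 0.12, -0.19 ± 0.11 and 0.13 ± 0.14 for the same comparisons (adjusted p = 0.528, 0.614 and 0.738). Its group means were 276, 301, 311 and 272 CPM in the same order of groups. Both genes had overlapping ranges in every comparison.

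**Figure D3:**
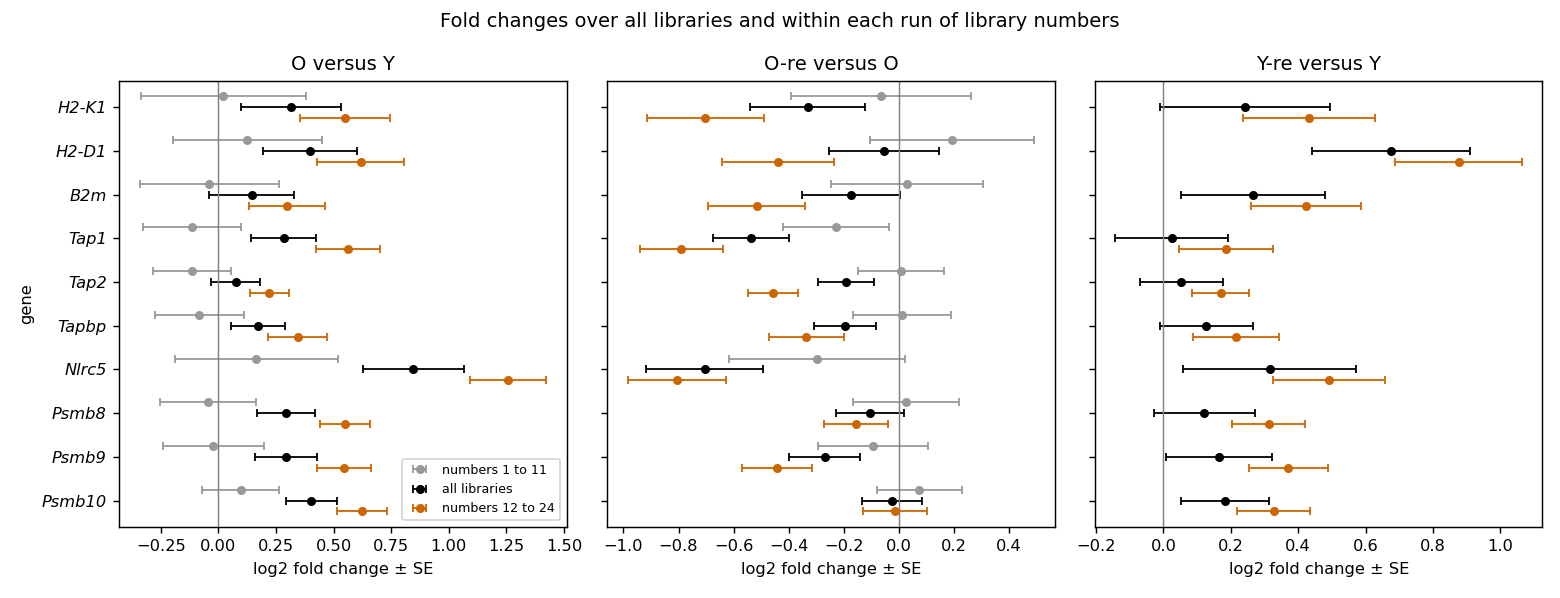
Log2 fold change ± SE (x axes) of each member (y axis) in 3 comparisons, over all libraries (black), only libraries numbered 1 to 11 (grey) and only those numbered 12 to 24 (orange). The young repopulated group has no library in the lower run; Nlrc5 in old against young is at 0.85 over all libraries, 0.16 in the lower run and 1.26 in the higher run.

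Of the 3 immunoproteasome subunits, Psmb10 (MECL-1, which replaces Psmb7) differed from young libraries also after repopulation in old mice. Its young libraries ran from 40.6 to 62.3 CPM with a median of 44.0, and the old repopulated ones from 52.1 to 70.3 with a median of 60.9. Apart from young replicate 1, at 62.3 CPM, no young library overlapped them in CPM. In TPM, where they ran from 123 to 166, young replicates 1, 2 and 3 stood at 172, 137 and 129. The log2 fold change was 0.38 ± 0.10 (n = 8 and 7), with an adjusted p of 0.0138, in a comparison in which 15.2% of all genes were called and the other 9 members were not. It stayed past the threshold without any single library. It was 0.61 ± 0.11 in the higher run of library numbers (adjusted p = 8.4e-04) and 0.17 ± 0.13 in the lower run (adjusted p = 0.672). The rise was not particular to Psmb10: 11 other proteasome core subunits were all higher in this comparison, by 0.19 to 0.51 (median 0.33). The 3 constitutive catalytic subunits were higher too, by 0.14 to 0.37. The TPM ratio of Psmb10 to Psmb7 differed by 0.16 on the log2 scale (exact permutation p = 0.212).

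The old libraries had Psmb10 at 49.7, 61.6, 80.3, 56.1 and 64.0 CPM. Against young they differed by 0.40 ± 0.11 with an adjusted p of 0.0516, just outside the threshold; DESeq2 and voom called it, and so did edgeR without any one of 7 libraries. Old repopulated against old was -0.025 ± 0.11 (adjusted p = 0.98). The young repopulated libraries stood at 52.7, 56.7 and 51.2 CPM, above 6 of the 7 young ones in CPM but at 117.5 to 135 within the young range of 105 to 172 in TPM, with a difference of 0.18 ± 0.13 (adjusted p = 0.565).

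Psmb8 (LMP7, which replaces Psmb5) had group means of 123 ± 23.1 CPM (mean ± SD) for the 7 young, 133 ± 2.81 for the 3 young repopulated, 150.1 ± 26.8 for the 5 old and 139.6 ± 19 for the 8 old repopulated libraries. Its log2 fold change in old against young was 0.29 ± 0.13 (adjusted p = 0.257). Psmb9 (LMP2, which replaces Psmb6) had group means of 36.7, 41.1, 45.0 and 37.3 CPM and differed by 0.29 ± 0.13 in old against young (adjusted p = 0.289) and by -0.27 ± 0.13 in old repopulated against old (adjusted p = 0.481). Psmb8 differed in old repopulated against old by -0.10 ± 0.12 (adjusted p = 0.870).

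The constitutive subunits that these replace did not pass the test in any comparison. Psmb5, Psmb6 and Psmb7 differed from young by -0.28, -0.25 and -0.30 in young repopulated libraries and by 0.37, 0.14 and 0.21 in old repopulated ones on the log2 scale. The ratio of each immunoproteasome subunit to its counterpart was therefore also taken within each library. The TPM ratio of Psmb8 to Psmb5 was 2.02 ± 0.32 (SD, n = 7) in young, 2.72 ± 0.10 (n = 3) in young repopulated, 2.20 ± 0.044 (n = 5) in old and 1.89 ± 0.49 (n = 8) in old repopulated libraries. The old repopulated libraries numbered 12 to 24 stood at 1.46, 1.62 and 1.29, and those numbered 1 to 11 at 2.31, 1.51, 2.52, 2.47 and 1.95. All 3 young repopulated libraries lay above all old repopulated ones in this ratio, with a difference of 0.57 on the log2 scale. In the ratio of expected counts they overlapped, at 3.91 to 4.39 against 1.98 to 4.09.

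None of 15 exact two-sided permutation tests of these ratios passed after adjustment over the 15. The lowest adjusted p was 0.0909, for Psmb8 to Psmb5 in old repopulated against young repopulated libraries (exact p = 0.0121) and for Psmb10 to Psmb7 in old against young ones (exact p = 0.0101). The latter ratio was 0.858 ± 0.13 (SD, n = 7) in young and 1.09 ± 0.061 (n = 5) in old libraries, with old ones at 1.15, 1.01, 1.15, 1.08 and 1.07 and only young replicate 1, at 1.08, within their range. Without young replicate 1, 4 of the 15 passed. With 8 old repopulated and 3 young repopulated libraries, 0.0121 is the lowest exact p that this permutation test can give. The Psmb8 to Psmb5 ratio reached it, since these groups did not overlap in TPM. Tests with the 3 young repopulated libraries therefore had little room to pass and cannot show that the ratios are alike. The ratio of Psmb9 to Psmb6 had group means of 0.393 in young, 0.523 in young repopulated, 0.458 in old and 0.390 in old repopulated libraries.

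**Figure D4:**
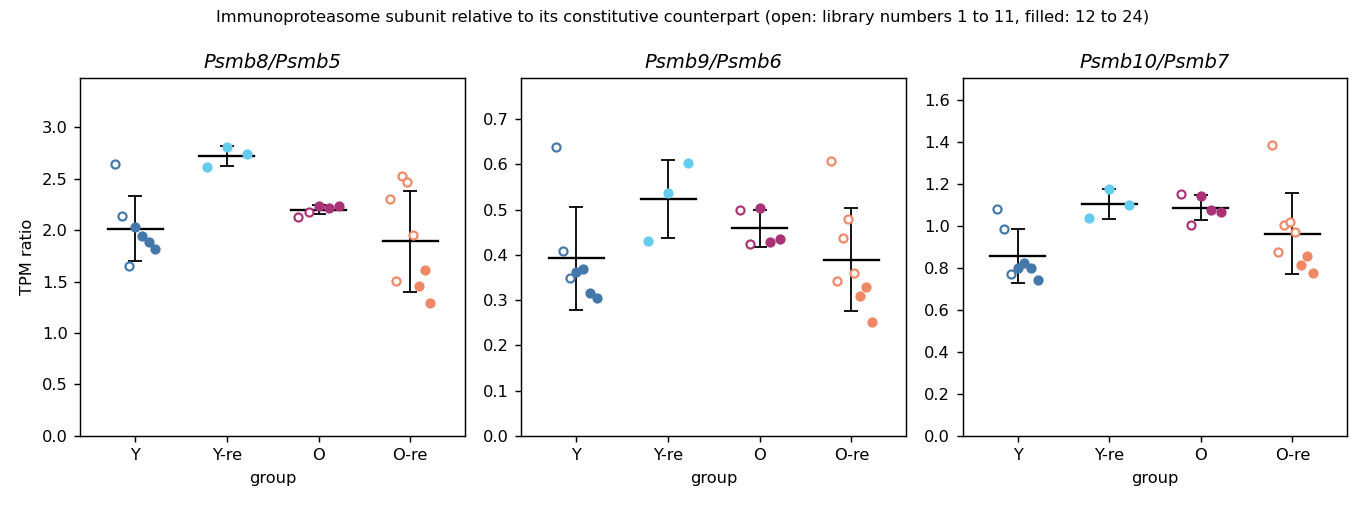
TPM ratio of each immunoproteasome subunit to the constitutive subunit it replaces (y axes, from 0) by group (x axes). Points are libraries, open for numbers 1 to 11 and filled for 12 to 24, with the group mean ± SD; the 3 young repopulated libraries have Psmb8 to Psmb5 ratios of 2.61 to 2.81, above all old repopulated ones in TPM though not in expected counts.

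Single libraries stood at the edge for many members at once. Old replicate 3 was the highest of all 23 libraries for 7 members. Old repopulated replicate 2 was the lowest for 6 and old repopulated replicate 8 the lowest for 2, and these libraries were among the 3 lowest for 8 and 6 members. Young replicate 1 was highest for 2 members, and young replicate 7 was among the 3 lowest for 8. Psmb10 did not follow the low old repopulated libraries: it stood at 59.6 CPM in replicate 2, where Nlrc5 was at 19.2 CPM and H2-K1 at 629.

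**Figure D5:**
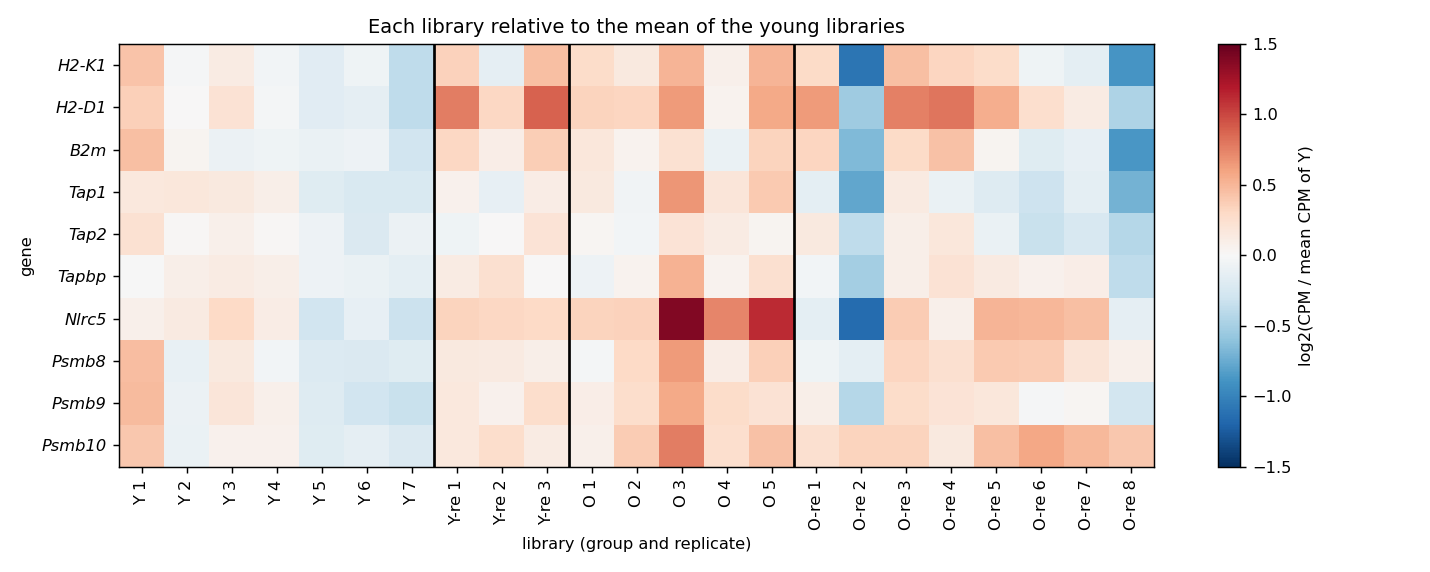
Log2 of each library's CPM over the mean CPM of the 7 young libraries (colour) for the 10 members (rows) in the 23 libraries (columns, by group and replicate). Old replicate 3 is the highest library for 7 members and old repopulated replicate 2 the lowest for 6, and Psmb10 lies above the young mean in both.

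The fits within runs of library numbers differed in how many members they called. Within 12 to 24, old against young gave 6 members called higher (H2-D1, Tap1, Nlrc5, Psmb8, Psmb9 and Psmb10), with 15.7% of genes called. Old repopulated against old gave 5 called lower (H2-K1, Tap1, Tap2, Nlrc5 and Psmb9), with 12.7% of genes called. Old repopulated against young repopulated gave 5 called lower (H2-K1, H2-D1, B2m, Tap1 and Tap2), with 36.3% of genes called. The interaction gave 7 called lower, with 8.87%. Both involve the young repopulated libraries, which in this run are numbered 22 to 24 and have high Wdfy1, while all others have low Wdfy1. Within 12 to 24 these 2 comparisons cannot be told apart from that split. Over all libraries the last 2 comparisons called no member and 0% of genes (at an unadjusted p under 0.05, 0 members against 11.7% of genes and 4 against 8.24%; DESeq2 called 0 members and 81 and 44 genes). Within 1 to 11, with 3 young, 2 old and 5 old repopulated libraries, none was called in any comparison and at most 0.0107% of genes were. In a model of the 3 groups present in both runs, no member's effect differed between the runs past the test. The smallest adjusted p was 0.198, for Psmb10 in old repopulated against young libraries. Of 19676 genes, that quasi-likelihood test called 0 in old against young, 0 in old repopulated against old and 12 in old repopulated against young. It therefore cannot show that the runs agree. Its unadjusted p in old against young was 0.018 for Nlrc5, 0.022 for Tap1, 0.024 for Psmb10, 0.029 for Psmb8 and 0.039 for Psmb9. For the other members it was 0.072 or more.

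Beyond the members, class II genes and interferon genes are the neighbouring antigen presentation groups. Ciita, the class II counterpart of Nlrc5, averaged 0.536 ± 0.45 CPM (mean ± SD) over the 7 young libraries, 4.73 ± 2.31 over the 3 young repopulated, 12.3 ± 12.5 over the 5 old and 10.13 ± 7.77 over the 8 old repopulated ones. It rose in old against young libraries by 4.52 ± 0.79 on the log2 scale (edgeR adjusted p = 0.0046) and was 4.23 ± 0.75 higher in old repopulated than in young ones (adjusted p = 0.0012). Of 7 class II genes, 5 were called higher in old against young, among them H2-Aa (3.94) and H2-Eb1 (3.94), 6 in old repopulated against young, and 1 in young repopulated against young, H2-DMa (0.65). Called in either direction in these comparisons were 2.83%, 15.2% and 1.34% of all genes. None of the 7 was called in old repopulated against old, against 0.278% of all genes, and their median there was -0.21.

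Of 22 interferon-stimulated genes, 21 were higher in old against young libraries (48.5% of all genes were), with a median of 0.72. Of the 22, 1 was called, Ifitm3 (1.60 ± 0.44, edgeR adjusted p = 0.0472), against 2.6% of all genes called higher. In old repopulated against old libraries all 22 were lower (49.4% of all genes were), with a median of -1.02. There 4 were called lower, against 0.278% of all genes called in either direction: Ifit2 (-1.46 ± 0.29), Ifit3 (-1.34 ± 0.28), Gbp2 (-1.04 ± 0.20) and Xaf1 (-1.02 ± 0.21). Among the 22 tested genes for interferon receptors, signalling and class I regulators, Stat2, a subunit of the interferon-induced factor ISGF3, fell, with a log2 fold change of -1.063 ± 0.18 (adjusted p = 0.0165). Irf1, an interferon-induced transcription factor, differed by -0.012 ± 0.22 without passing (adjusted p = 0.995). Called lower in old repopulated against young libraries were 4 interferon-stimulated genes, Cxcl10 (-0.83), Ifit2 (-0.79), Gbp2 (-0.78) and Gbp5 (-0.78). Stat2 (-0.51) and Rela (-0.38), a subunit of NF-kB, were also called lower there, in a comparison that called 15.2% of all genes. In young repopulated against young libraries none of these 22 and none of the interferon-stimulated genes was called, against 1.34% of all genes. Ifng, the gene of interferon gamma, was at 0 CPM in all young and old repopulated libraries and at most at 0.155 CPM elsewhere, below the filter.

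Of 18 tested heavy chain genes other than H2-K1 and H2-D1, none was called in the first 3 comparisons, against 2.83%, 0.278% and 1.34% of all genes. In old against young 14 were higher (48.5% of all genes were), with a median of 0.36. In old repopulated against old 16 were lower (49.4% of all genes were), with a median of -0.46. The class I relatives Fcgrt, the neonatal Fc receptor, and Hfe, the regulator of iron uptake, were called lower in old repopulated against young libraries (-0.63 ± 0.14 and -0.48 ± 0.13, adjusted p = 0.0053 and 0.0152). Of 14 other loading and trimming genes, Lnpep, an aminopeptidase that trims peptides, was called higher in old against young (0.68 ± 0.16, edgeR adjusted p = 0.0206). There 2.6% of all genes were called higher. In old repopulated against young libraries Lnpep (0.49) and Sec61b (0.54), a subunit of the channel into the endoplasmic reticulum, were called higher. Uba7 (-0.52), the enzyme that activates ISG15, was called lower in the same comparison. The trimming enzyme Erap1 differed by at most 0.040 in size in any comparison of the fitted counts. In TPM its group means were 60.1 in young, 50.2 in young repopulated, 61.0 in old and 52.4 in old repopulated libraries. Of the 11 other core subunits of the proteasome, Psma6 (0.51) and Psmb3 (0.47) were called higher in old repopulated against young libraries, as was the activator subunit Psme3 (0.36). In that comparison 15.2% of all genes were called, which is the background for each of these lists.

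Among 9 tested genes of class I receptors and related receptors, 3 were called higher in old against young libraries, against 2.6% of all genes. They were Klra2 (3.73 ± 0.76), an Ly49 family receptor, Klrd1 (3.00 ± 0.80), the CD94 chain, and Pirb (1.89 ± 0.41), an inhibitory receptor. Klra2 was also called higher in young repopulated against young (3.72 ± 0.81, adjusted p = 0.0251). Pirb averaged 37.6 ± 10.2 CPM (mean ± SD) over the 7 young libraries, 80.3 ± 13.7 over the 3 young repopulated, 139 ± 103 over the 5 old and 116 ± 70.6 over the 8 old repopulated ones. Old repopulated against young libraries had 4 of the 9 called higher, against 9.29% of all genes. These were Klra2 (4.4), Klrd1 (2.94), Pirb (1.63) and Lilr4b (1.26). Cd8a and Cd8b1, the co-receptor chains of T cells, were at most at 0.683 and 0.115 CPM in any library.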

How the data were processed

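Of each library's deposited table, in RSEM's layout, the expected count and TPM columns were used. Per the submitters' processing notes, the authors used FastQC 0.11.5, STAR, RSEM and limma on GRCm38; the sources used here give neither the annotation nor the use of strand. Per the labels' protocols, stranded single reads of 50 bases were made from 2.4 to 147 ng of RNA. The deposited expected counts are estimates (87.26% whole within 1e-06) and were rounded. The deposited TPM values were corrected by the authors for length and depth.

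Counts were fitted in edgeR 4.0.16 (R 4.3.3) with TMM, filterByExpr by group and 1 coefficient per group over all 23 libraries, tested by quasi-likelihood and adjusted by Benjamini-Hochberg over all 18720 genes; called means an adjusted p under 0.05. CPM values are TMM-scaled. Alternatives were other scaling (RLE, upper quartile), other filters, DESeq2 1.42.0, limma 3.58.1 voom, fits of subsets, library number terms and leaving out each library. Ratios of TPM were tested by exact permutation (scipy 1.17.1). The tests were checked on simulated data.

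The members, gene lists and tests were chosen with earlier results of these data known. The text names all members, Irf1, Ciita, Ifng and the constitutive subunits, and from each list up to 3 called genes per direction and comparison with the largest changes. Erap1, Cd8a, Cd8b1, Xaf1, Gbp5, Lilr4b, the monocyte and other marker sums and Wdfy1 were given outside that rule, with their values known. Of the listed symbols, 6 were not found in the tables. Promoters and coordinates are RefSeq's, matched by symbol. One gene that the naming rule covers is not reported here.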

Additional observations from a re-analysis of the deposited data

Results flagged for a closer look

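In 42 groups of 4 to 10 libraries tested (the members' CPM and the ratios), 4 held a library far from its group by Dixon's criterion, which chance meets in about 1 in 20. Young replicate 1 was far above the other young libraries for B2m (3935 CPM, the next at 2952), for Psmb10 (62.3 CPM, the next at 49.5) and for the TPM ratio of Psmb9 to Psmb6 (0.639, the next at 0.409). Old repopulated replicate 1 was far above its group for the ratio of Psmb10 to Psmb7 (1.39, the next at 1.02). Young replicate 1 also had 4 members among the 3 highest of all libraries.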

How the results depend on the processing

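No paired analysis was possible because the titles give each library a number of its own, and the replicate numbers used here only follow the order of deposit within a group and pair no libraries. RLE factors, no filter and robust dispersion estimation changed no member's direction or call. The number of members called in old against young was 1 by edgeR, 2 with a mean of at least 5 CPM and by DESeq2, and 6 by voom. It was 0 within numbers 1 to 11 and 6 within 12 to 24, and 0 to 2 leaving out single libraries. Of all genes, 4.89% were called with at least 5 CPM, 5.19% by DESeq2, 12.6% by voom and 15.7% within 12 to 24. For old repopulated against old the number of members was 0, and 1 by DESeq2 and voom, 5 within 12 to 24, and 0 to 1 leaving out libraries. The shares of all genes were 1.66% by DESeq2, 2.21% by voom and 12.7% within 12 to 24. For young repopulated against young the number of members was 0, and 3 by voom, 1 with only the groups compared and 1 within 12 to 24. The shares of all genes in these 3 settings were 13.8%, 7.5% and 9.3%. For old repopulated against young the number of members was 1, and 2 by voom, 0 within 1 to 11 and 4 within 12 to 24. Of all genes, voom called 35.5% there, the fit within 1 to 11 0.0107% and that within 12 to 24 41.1%. For old repopulated against young repopulated and the interaction the number of members was 0, and 2 and 1 by voom, and 5 and 7 within 12 to 24. The shares of all genes were 17% and 0.807% by voom and 36.3% and 8.87% within 12 to 24. Within 12 to 24 every comparison with the young repopulated group also sets high against low Wdfy1. The summed heavy chains passed in 0 of 6 comparisons, and in 3 within 12 to 24. The ratios passed in 0 of 15, and in 0 to 4 leaving out libraries (4 without young replicate 1). The cause of these moves was not tested; voom and 12 to 24 also called more genes of all kinds, and 1 to 11 holds fewer libraries.

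Directions turned as follows (log2). Within 1 to 11, old against young: B2m -0.040, Tap1 -0.12, Tap2 -0.11, Tapbp -0.083, Psmb8 -0.045 and Psmb9 -0.023; old repopulated against old: H2-D1 0.19, B2m 0.030, Tap2 0.0089, Tapbp 0.012, Psmb8 0.027, Psmb10 0.075 and the summed heavy chains 0.017; old repopulated against young: Nlrc5 -0.13, Psmb8 -0.019, Psmb9 -0.12 and the Psmb8/Psmb5 ratio 0.0074. Within 12 to 24, old repopulated against young turned for Tapbp (0.0090) and the summed heavy chains (-0.091). Psmb10 in old repopulated against old was 0.036 with voom. Tap1 in young repopulated against young was -0.0041 with upper-quartile factors, -0.00035 with at least 5 CPM and, with numbers 12 to 21 as a term (added after seeing the data), -0.020, with Tap2 at -0.037. In old repopulated against young, Psmb9 was -0.037 with upper-quartile factors, -0.013 with at least 5 CPM and -0.00064 with either library number term, Tapbp 0.039 with voom and H2-K1 0.0018 with only the groups compared. Leaving out single libraries, old repopulated against old ran from -0.13 to 0.038 for H2-D1 and from -0.0997 to 0.082 for Psmb10; young repopulated against young from -0.023 to 0.13 for Tap1 and from -0.026 to 0.11 for Tap2; old repopulated against young from -0.096 to 0.089 for H2-K1, -0.11 to 0.062 for B2m, -0.060 to 0.035 for Tapbp, -0.025 to 0.12 for Psmb9 and -0.12 to 0.11 for the Psmb9/Psmb6 ratio. None of the turned values passed the test.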
